A study of Mus musculus with 15 samples.

Results

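The 10 genes described here make, use or control creatine, arginine and polyamines, 3 linked products of amino acid metabolism in the kidney. They are Gatm and Ckb (creatine), Ass1, Asl and Arg2 (arginine), and Odc1, Azin1, Amd1, Srm and Sat1 (polyamines). They were taken by name from the 33058 genes of the kidney RNA-seq data, and all 10 were present. The list was chosen with earlier results of these data known. The value of a gene was the sum of its transcripts' FPKM, a fragment count divided by transcript length in kilobases and by library size. The samples were kidneys of 15 male C57BL/6 mice (C57BL/6J in the study's methods) on standard chow with no treatment named, aged 3, 12 or 24 months (5 mice per age, 1 library for each). The mice carry the label numbers 5 to 9 at 3 months, 17 to 21 at 12 months and 31 to 35 at 24 months, and are called replicates by these numbers. The labels describe removal of ribosomal RNA and a stranded total RNA kit, whereas the study's methods describe purification of polyadenylated RNA. Titles at every age start with 3M, and age was taken from the age label.

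The kidney is a main site of the first step of creatine synthesis, in which glycine amidinotransferase joins arginine and glycine. It is also the main organ that turns circulating citrulline into arginine for the body, through argininosuccinate synthase and argininosuccinate lyase in the proximal tubule. Polyamines are small cations that cells need for growth and translation. Ornithine decarboxylase starts their synthesis, and in male mouse kidney its gene is known to respond to androgen.

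Aligned sequence ranged from 5.03 to 6.13 Gb per library at 3 months, from 5.84 to 8.03 Gb at 12 months and from 6.07 to 7.33 Gb at 24 months. These ranges overlapped, and 3-month replicate 8 was the shallowest library. Transcripts above 0 numbered 83226 to 86350 at 3 months, 87796 to 89709 at 12 months and 87548 to 89423 at 24 months. Every 3-month library thus held fewer of them than any older one. The part of this in the differences between ages was not tested. Kidney identity was checked by the summed FPKM of 10 proximal tubule markers, which was 2263 to 2759 at 3 months, 2257 to 2797 at 12 months and 2188 to 2758 at 24 months. In whole tissue, fewer cells of a type and less RNA per cell cannot be told apart.

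Over the 15 mice the order of mean FPKM was Ass1 (566.0), Gatm, Odc1 (142.3), Sat1 (37.6), Asl (30.1), Ckb (18.1), Azin1 (17.4), Amd1 (11.01), Srm (6.29) and Arg2 (4.28). FPKM is a level per transcript length, so these levels can be set beside each other. Ass1 ranked 26th and Gatm 96th of the 33058 genes, and Arg2, the lowest member, ranked 8171st. Ass1 exceeded Gatm in 15 of 15 mice, and Gatm exceeded Odc1 in 13 of 15. Odc1 and Sat1 were the only neighbours in this order whose ranges over the 15 mice did not overlap. Ckb and Azin1 did not differ beyond their spread, since Ckb was the higher of the pair in 7 of 15 mice.

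**Figure D1:**
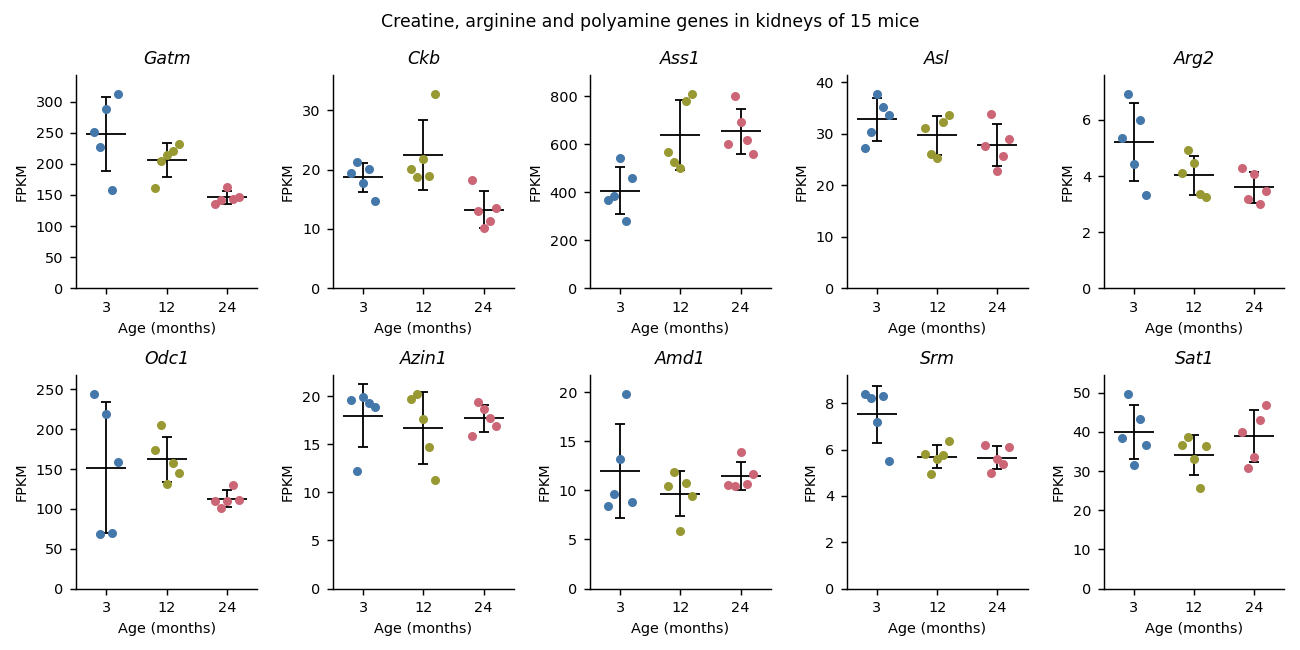
FPKM (vertical axis, from 0) of the 10 genes by age in months (horizontal axis), 1 point for each mouse, with a bar at the mean and whiskers of 1 SD (n = 5 mice at each age). Gatm lies between 135 and 163 in the 24-month-old mice, Ass1 is above 541 in every 24-month-old mouse, and Odc1 at 3 months splits into 68.2 and 69.4 in a pair of mice and 159 to 244 in the other 3.

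At 24 against 3 months, 0 of the 10 genes passed limma at a Benjamini-Hochberg adjusted p under 0.05, where 1.22% of the 31755 genes tested passed. At an unadjusted p under 0.05, 5 of the 10 stood out, beside 14.9% of all genes. Ass1 was higher, where 11.4% of all genes were higher at that limit, and Gatm, Ckb, Srm and Arg2 were lower, where 3.47% of all genes were lower. All genes include many near 0, which can hardly be lower on this scale. Of the 13360 genes with a mean of at least 1 FPKM, as all 10 members had, 2503 stood out, 1654 higher and 849 lower. The median log2 fold change of the 10 genes was -0.24 and that of all genes tested was 0.02. Ass1 was the only member without overlap between these ages (higher), and 4.73% of all genes had none (3.82% of all genes higher and 0.91% lower at the older age). The labels number the mice, whereas the study's methods also mention pooled RNA, so the p-values measure the spread between these libraries.

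At 12 against 3 months, again 0 of 10 genes passed the adjusted limit of limma (0.25% of 31637 genes did), and 2 of 10 had an unadjusted p under 0.05, beside 14.3% of all genes. They were Ass1, which was higher (11.4% of all genes were), and Srm, which was lower (2.9% were). Of the 13322 genes with a mean of at least 1 FPKM, 1807 were higher and 647 lower at that limit. None of the 10 genes was without overlap, beside 4.11% of all genes (3.45% higher and 0.667% lower). At 24 against 12 months, 0 of 10 passed (0.0031% of 32282 genes did), and 3 of 10 had an unadjusted p under 0.05, beside 6.43% of all genes. Those 3, Gatm, Odc1 and Ckb, were all lower in the older mice, as were 3.36% of all genes at that limit, while 3.07% were higher. Of the 13600 genes with a mean of at least 1 FPKM here, 676 were lower and 476 higher. Odc1 and Ckb had no overlap, beside 1.07% of all genes (0.493% higher and 0.573% lower). In an F test over the 3 ages 0 of 10 passed (1.47% of genes did) and 4 of 10, Gatm, Ckb, Srm and Ass1, had an unadjusted p under 0.05, beside 14.7% of all genes. The comparisons share mice and are not independent of each other.

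**Figure D2:**
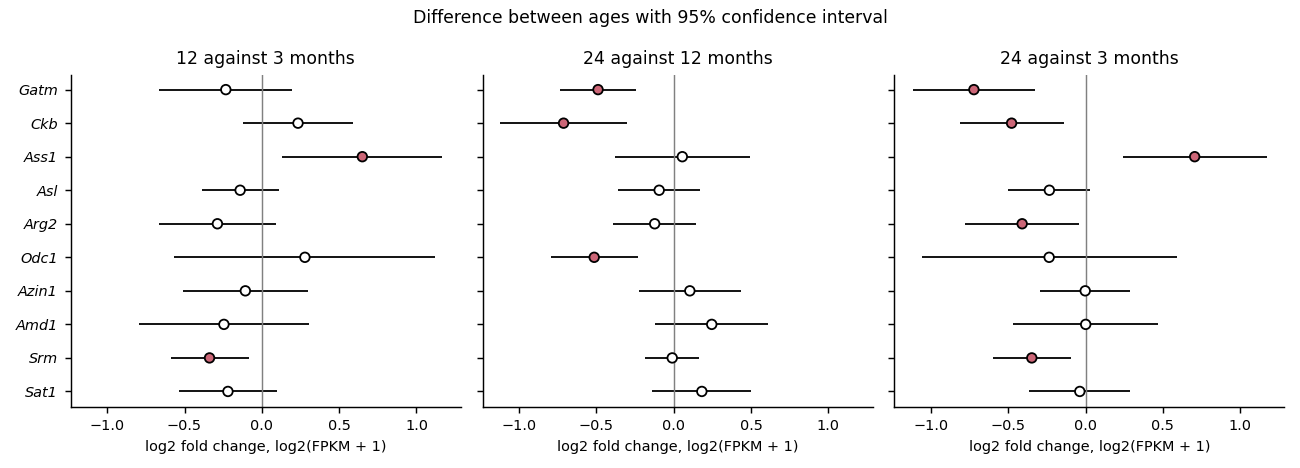
Log2 fold change on the log2(FPKM + 1) scale (horizontal axis) of each gene (vertical axis) in the 3 comparisons of ages, with the 95% confidence interval of limma as a line. Filled points have an unadjusted p under 0.05, which holds for 2 genes at 12 against 3 months, 3 at 24 against 12 months and 5 at 24 against 3 months. No point passed the adjusted limit.

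Gatm (chr2:122594467-122611303, minus strand, GRCm38) encodes glycine amidinotransferase, the first enzyme of creatine synthesis. Its FPKM in 3-month replicates 5 to 9 was 251, 227, 289, 158 and 312. In 12-month replicates 17 to 21 it was 161, 204, 215, 221 and 232, and in 24-month replicates 31 to 35 it was 135, 141, 163, 144 and 146. The 24-month-old mice formed a narrow band at the bottom, and only 3-month replicate 8 and 12-month replicate 17 reached into it. The mean was 247.5 ± 59.8 (SD, n = 5) at 3 months, 206.5 ± 27.4 at 12 months and 146.0 ± 10.7 at 24 months.

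At 24 against 3 months Gatm differed by a log2 fold change of -0.72 (SE 0.18; 95% interval -1.12 to -0.33; limma, unadjusted p = 0.00229, adjusted p = 0.0864). At 24 against 12 months the log2 difference was -0.49 (SE 0.11; limma, unadjusted p = 0.00142, adjusted p = 0.586), and at 12 against 3 months it was -0.23 (interval -0.66 to 0.20). Gatm crossed the adjusted limit without 3-month replicate 8 (limma, adjusted p = 0.0386) and when all 15 mice entered one fit (also 0.0386). The protein-coding transcript ENSMUST00000028624 carried 93.3% of the Gatm FPKM, and its own log2 fold change at 24 against 3 months was -0.73.

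The sequence before the Gatm start is shown because Gatm had the smallest p of the 10 genes at 24 against 3 months, with that of Ckb, which was also lower at 24 months than at both younger ages, beside it. Both are RefSeq promoter sequences (GRCm38.p6) read 5′ to 3′ in the direction of transcription up to the first annotated start, at chr2:122611304-122611527 and chr12:111672339-111672588, both minus strand. Capitals mark the CCAAT box (CCAAT, on either strand) and the TATA box (TATAAA, on either strand).
Gatm: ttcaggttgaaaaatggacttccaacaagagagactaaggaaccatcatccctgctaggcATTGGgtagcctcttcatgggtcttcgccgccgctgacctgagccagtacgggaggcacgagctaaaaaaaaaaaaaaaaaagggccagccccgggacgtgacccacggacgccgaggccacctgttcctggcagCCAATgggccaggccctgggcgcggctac
Ckb: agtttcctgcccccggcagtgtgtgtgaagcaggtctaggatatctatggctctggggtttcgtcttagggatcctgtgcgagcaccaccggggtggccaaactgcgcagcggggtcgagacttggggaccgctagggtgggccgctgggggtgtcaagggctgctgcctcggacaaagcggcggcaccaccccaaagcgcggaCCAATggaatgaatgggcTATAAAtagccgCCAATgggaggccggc

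RefSeq promoters were at hand for 6 of the 10 genes, namely Gatm, Ckb, Ass1, Odc1, Amd1 and Sat1. In the 250 bases before the RefSeq start, Gatm and Ckb held a CCAAT box, as did 33.8% of the 32851 promoters searched, and Ckb held a TATA box, as did 12.4%. The hexamer of the androgen receptor's site (AGAACA, either strand) was in the Sat1 promoter, and in 16.1% of all. The GC box (GGGCGG, either strand) was in those of Amd1, Odc1 and Sat1, and in 32.7% of all. In Ass1 the window runs past the first annotated start, and its matches, a GC box and an E-box (CACGTG, in 6.02% of all), lie in that transcribed stretch, with none of these motifs before it. These matches describe the letters in a window and are not binding sites.

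Ckb (chr12:111668950-111672338, minus strand) encodes brain-type creatine kinase, which passes phosphate between ATP and creatine. Its FPKM was 19.4, 21.3, 17.8, 20.1 and 14.8 in 3-month replicates 5 to 9. It was 20.04, 18.8, 21.8, 18.98 and 32.7 in 12-month replicates 17 to 21, and 18.3, 13.1, 10.2, 11.3 and 13.5 in 24-month replicates 31 to 35. All 24-month-old mice were below all 12-month-old mice, and 4 of 5 were below all 3-month-old mice.

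The log2 difference of Ckb was -0.71 at 24 against 12 months (SE 0.18; limma, unadjusted p = 0.00321, adjusted p = 0.625). At 24 against 3 months it was -0.48 (SE 0.15; limma, unadjusted p = 0.0102, adjusted p = 0.17), and at 12 against 3 months 0.23 (interval -0.12 to 0.59). The annotated transcript ENSMUST00000001304 (66.3% of the Ckb FPKM) had a mean level of 13.1 FPKM at 3 months and 6.90 at 24 months (log2 fold change -0.98, SE 0.35; limma, unadjusted p = 0.0188, adjusted p = 0.529). The other 3 transcripts were assembled by the authors and carried the rest of the level. Ckb has a processed pseudogene copy, and reads that the copy shares with it are uncertain.

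Of 5 other genes of creatine metabolism, 0 passed limma's adjusted limit or had an unadjusted p under 0.05 in any of the 3 comparisons. Gamt, which finishes creatine synthesis, had a mean of 3.71 ± 1.13 FPKM at 3 months and 3.83 ± 0.37 at 24 months. Slc6a8, the creatine transporter, had 46.9 ± 6.73 and 52.8 ± 6.22, and the mitochondrial kinase Ckmt1 had 11.2 ± 2.72 and 12.0 ± 1.49 (n = 5 each). The muscle kinases Ckm and Ckmt2 were at or near 0 in all mice.

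Ass1 (chr2:31470207-31520672, plus strand) encodes argininosuccinate synthase, which joins citrulline and aspartate. Its FPKM was 369, 384, 541, 281 and 460 in 3-month replicates 5 to 9. It was 567, 526, 502, 780 and 809 in 12-month replicates 17 to 21, and 601, 799, 693, 618 and 558 in 24-month replicates 31 to 35. Every 24-month-old mouse was above every 3-month-old mouse, and the 12-month-old mice overlapped the 3-month-old mice only through 3-month replicate 7.

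The mean FPKM of Ass1 was 407 ± 98.3 at 3 months, 637 ± 146 at 12 months and 654 ± 94.9 at 24 months (SD, n = 5). The log2 fold change was 0.71 at 24 against 3 months (SE 0.21; 95% interval 0.24 to 1.17; limma, unadjusted p = 0.00721, adjusted p = 0.146). At 12 against 3 months it was 0.65 (SE 0.23; limma, unadjusted p = 0.019, adjusted p = 0.247), and at 24 against 12 months 0.06 (interval -0.38 to 0.49). An exact permutation test between 24 and 3 months gave p = 0.00794 (2-sided), the smallest its 252 assignments can give.

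The Ass1 transcripts did not share the difference evenly. ENSMUST00000102840, the 16-exon protein-coding transcript of 1696 bases, was at 105, 255, 319, 95.3 and 282 FPKM in 3-month replicates 5 to 9. It was at 364, 320, 328, 544 and 563 in 12-month replicates 17 to 21 and at 405, 583, 545, 462 and 438 in 24-month replicates 31 to 35. The second large transcript, assembled by the authors and 5932 bases long, was at 256, 100.3, 180, 174 and 152 at 3 months, and its 24-month values were 164, 173, 127, 138 and 110.0.

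The protein-coding transcript was higher at 24 than at 3 months without overlap (log2 fold change 1.36, SE 0.38; limma, unadjusted p = 0.00514, adjusted p = 0.382), while the assembled one differed by -0.23 (SE 0.26; unadjusted p = 0.385). In 3-month replicates 5 and 8 the assembled transcript took 69.4% and 62.1% of the Ass1 FPKM, against 26.1% to 33.2% in the other 3 mice of that age and 18.4% to 27.2% at 24 months. Its exons were not in the deposited table, but its length and ends match the 16-exon transcript with intron 1 kept (4367 bases, chr2:31470340-31474706), the only intron of that length in the gene. Because FPKM divides by length, a read given to this long form adds less to the gene's sum than a read given to the short form.

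Without division by length, as FPKM times transcript length in kilobases (the fragment scale), Ass1 was at 1703, 1044, 1632, 1202 and 1396 in 3-month replicates 5 to 9, and at 1676, 2039, 1690, 1610 and 1400 in 24-month replicates 31 to 35. The ages then overlapped, and the log2 fold change was 0.28 (SE 0.17; 95% interval -0.09 to 0.66; limma, unadjusted p = 0.125, adjusted p = 0.487). The 12-month-old mice had 1814 ± 360 and differed from the 3-month-old mice by 0.38 (interval -0.05 to 0.81). No other gene of the 10 moved as far between the FPKM and the fragment scale at 24 against 3 months, and Gatm was at -0.72 on the first and -0.73 on the second.

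**Figure D3:**
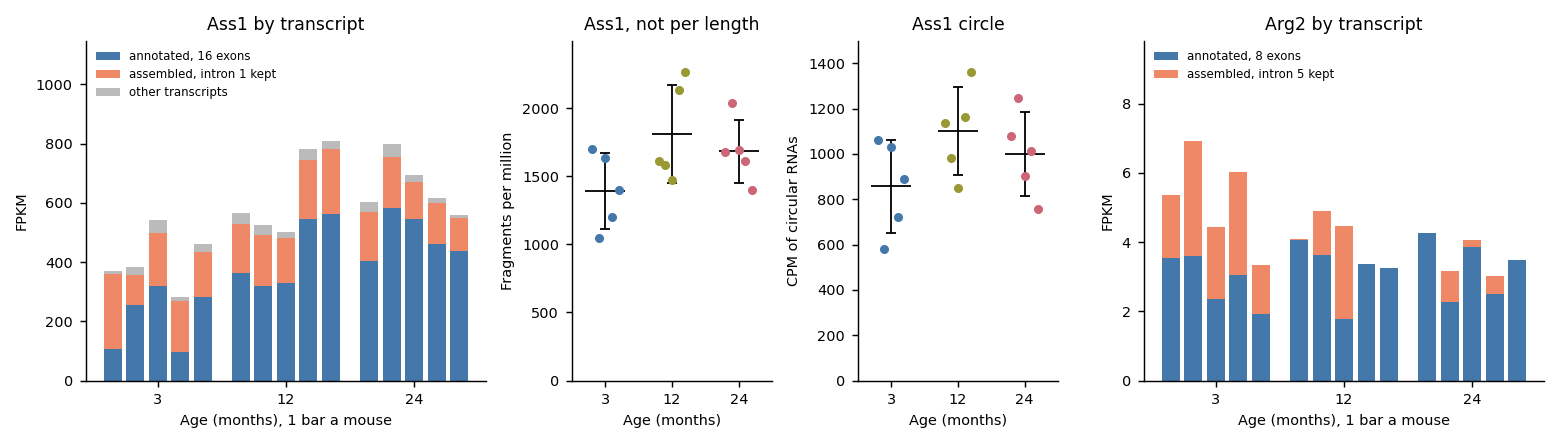
From left to right: Ass1 FPKM by transcript, 1 stacked bar for each mouse in order of label number, Ass1 on the fragment scale, the CPM of the circular RNA of Ass1, and Arg2 FPKM by transcript, all against age in months. CPM are counts scaled to the sum of circular RNA counts after edgeR's TMM adjustment of that sum. Points are mice, with the mean and 1 SD (n = 5). The long form of Ass1 fills most of the bar in 3-month replicates 5 and 8, and the assembled form of Arg2 is in all 5 mice at 3 months (1.404 to 3.33 FPKM) but at 0 to 0.903 at 24 months.

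Circular RNAs of the same genes were also listed, with estimated counts from the same libraries. These counts summed to between 6974494 and 9889971 per library, and 83.6% to 94.6% of a library's values were not whole numbers. Whether they include reads shared with the linear RNA is not given, so they are not an independent readout of the genes. Exonic circles arise when the end of a downstream exon is joined back to the start of an upstream exon, and intronic circles come from excised introns. The authors listed 6 circular RNAs of these 10 genes that could be tested, 4 made of exons and 2 of introns. The back-splice junctions of the 4 exonic circles are given below from GENCODE M21 transcripts (GRCm38), as the last 15 bases of the circle's final exon followed by the first 15 of its first exon, because a read across that join is what tells the circle from the linear RNA. Capitals mark the 8 bases around the join. The Asl exons are numbered on the 18-exon transcript ENSMUST00000159619, which carried only 0.00511% of the Asl FPKM.
Ass1 exons 10 to 12, chr2:31498147-31501552: gaatgaagtccCGAGAATCaagcacctccg
Asl exons 5 to 9, chr5:130016097-130018916: cttgccactggGGAGGTTGctgaagagtgg
Azin1 exons 5 to 9, chr15:38493474-38498841: aattttcctctGGAGAATGaaatggcttta
Ckb exon 3, chr12:111671425-111671579: ccagacaacctGCAGGCCAcccgtacatca

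The Ass1 circle of 241 bases was the most abundant of the 6, with 4452 to 11851 estimated counts per mouse. Its CPM (counts scaled to the sum of circular RNA counts after edgeR's TMM adjustment of that sum) was 1062, 582, 1031, 721 and 887 in 3-month replicates 5 to 9. It was 1138, 982, 850, 1164 and 1363 in 12-month replicates 17 to 21, and 1079, 1247, 903, 1014 and 757 in 24-month replicates 31 to 35. The ages overlapped, and 3-month replicates 6 and 8 were the lowest mice, as they were for the linear gene on the fragment scale. At 24 against 3 months the log2 fold change was 0.22 (edgeR quasi-likelihood test, unadjusted p = 0.221, adjusted p = 0.428).

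Of the 6 circular RNAs 0 passed edgeR's adjusted limit at 24 against 3 months, where 13.3% of 11924 circular RNAs did, and 1 of 6 had an unadjusted p under 0.05, beside 28.8% of all. DESeq2 gave the same counts, 0 and 1. The Ckb circle, the 155 bases of exon 3, was at 16.8 ± 2.19 CPM at 3 months, 23.7 ± 6.70 at 12 months and 13.5 ± 4.28 at 24 months (SD, n = 5). It was highest in 12-month replicate 21 (33.01 CPM), the mouse with the highest linear Ckb, and its log2 fold change at 24 against 3 months was -0.32 (edgeR, unadjusted p = 0.105, adjusted p = 0.272). The Asl circle had 91.1 ± 16.5 CPM at 3 months and 86.2 ± 13.1 at 24 months, a log2 fold change of -0.08 (edgeR, unadjusted p = 0.547).

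Asl (chr5:130011258-130029247, minus strand) encodes argininosuccinate lyase, which releases arginine. Its FPKM was 27.2, 30.4, 37.8, 35.2 and 33.6 in 3-month replicates 5 to 9. It was 31.1, 26.0, 25.4, 32.3 and 33.6 in 12-month replicates 17 to 21, and 27.7, 33.9, 22.7, 25.7 and 29.0 in 24-month replicates 31 to 35. The 3 ages overlapped, with a log2 fold change of -0.23 at 24 against 3 months (SE 0.12; interval -0.50 to 0.03; limma, unadjusted p = 0.0765, adjusted p = 0.402).

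Below this level, the balance of the Asl transcripts differed between mice. ENSMUST00000161094 and ENSMUST00000160129, both annotated as protein-coding, carried 30.9% and 52.5% of the Asl FPKM over the 15 mice. At 3 months the first was at 12.1 to 16.97 FPKM and the second at 10.3 to 13.7, so that both were near equal in all 5 mice. In 4 of 5 mice at 12 months and 3 of 5 at 24 months the first was at 3.49 to 5.23 and the second at 15.2 to 26.2, whereas in the other 3 mice the balance was as at 3 months. The log2 fold change of the first at 24 against 3 months was -1.003 (SE 0.32; limma, unadjusted p = 0.011, adjusted p = 0.459), and that of the second was 0.26 (SE 0.19; unadjusted p = 0.198).

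Arg2 (chr12:79130777-79156301, plus strand) encodes the mitochondrial arginase, which splits arginine into ornithine and urea. Its FPKM was 5.35, 6.93, 4.43, 6.01 and 3.33 in 3-month replicates 5 to 9. It was 4.10, 4.91, 4.46, 3.37 and 3.26 in 12-month replicates 17 to 21, and 4.27, 3.17, 4.06, 3.02 and 3.48 in 24-month replicates 31 to 35. The ages overlapped, with the 3 highest mice all at 3 months, and the log2 fold change at 24 against 3 months was -0.41 (SE 0.16; limma, unadjusted p = 0.0318, adjusted p = 0.275).

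The whole Arg2 difference lay in 1 assembled transcript. It was at 1.83, 3.33, 2.07, 2.95 and 1.404 FPKM in 3-month replicates 5 to 9 and at 0, 0.903, 0.195, 0.522 and 0 in 24-month replicates 31 to 35, without overlap (log2 fold change -1.34, SE 0.23; limma, unadjusted p = 0.000213, adjusted p = 0.173). At 12 months it was at 0.0444, 1.27, 2.68, 0 and 0, so that the mice of that age spread over both other ages. The annotated 8-exon transcript ENSMUST00000021550 had 2.89 ± 0.73 FPKM at 3 months and 3.27 ± 0.87 at 24 months, and counted on it alone the gene's log2 fold change was 0.13. The assembled form's length and ends match the 8-exon transcript with intron 5 kept (126 bases, chr12:79150827-79150952). The antisense gene Gm48780 overlaps the end of that intron and Vti1b overlaps the gene's end from the other strand. The sources used here do not give whether strand was used in the estimation, so reads from these partners cannot be told apart from those of Arg2.

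In Gatm and Srm a single annotated transcript carried 93.3% and 93.7% of the FPKM, and on the fragment scale their log2 fold changes at 24 against 3 months were -0.73 and -0.40. Over all members, 0 transcripts passed limma's adjusted limit at 24 against 3 months, where 0.0192% of 124719 did, and 13 of 54 had an unadjusted p under 0.05, beside 7.9% of all transcripts. These 13 were 4 of Azin1, 2 each of Asl and Sat1, and 1 each of Ass1, Arg2, Gatm, Srm and Ckb. Those of Ass1 (higher) and Arg2 (lower) had no overlap between the ages, which held for 2.13% of all transcripts.

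Among 21 measured genes listed as partners in arginine supply and use, 1 passed limma's adjusted limit at 24 against 3 months, beside 1.22% of all genes. It was Azin2, which encodes antizyme inhibitor 2, a relative of Azin1 that belongs to the control of ornithine decarboxylase rather than to arginine supply. Azin2 rose from 2.18 ± 0.44 to 4.07 ± 0.64 FPKM (log2 fold change 0.67, SE 0.13; limma, adjusted p = 0.0459). Every 24-month-old mouse was above every 3-month-old mouse, which held for 3.82% of all genes. Azin2 passed on the fragment scale too (limma, adjusted p = 0.0304). At an unadjusted p under 0.05, 4 of the 21 were higher and 1 lower, beside 11.4% and 3.47% of all genes, and their median log2 fold change was 0.07. Named after their values were seen, Agmat, agmatinase, was at 0.386 ± 0.122 and 0.856 ± 0.234, and the cystine and dibasic amino acid transporter Slc7a9 at 26.7 ± 1.38 and 32.1 ± 2.47. At 12 against 3 months and at 24 against 12 months 0 of these 21 passed, with 8 and 4 at an unadjusted p under 0.05, beside 14.3% and 6.43% of all genes.

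Odc1 (chr12:17544873-17553058, plus strand) encodes ornithine decarboxylase, the first enzyme of polyamine synthesis. Its FPKM was 244, 68.2, 219, 69.4 and 159 in 3-month replicates 5 to 9. It was 174, 205, 131, 158 and 145 in 12-month replicates 17 to 21, and 109, 102, 109, 130.4 and 112 in 24-month replicates 31 to 35. The 3-month-old mice held both the 2 highest and the 2 lowest values of all 15 mice. The highest mouse was 3.58 times the lowest at 3 months, 1.56 times at 12 months and 1.28 times at 24 months.

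Every 24-month-old mouse was below every 12-month-old mouse in Odc1, with a log2 difference of -0.51 (SE 0.13; 95% interval -0.79 to -0.23; limma, unadjusted p = 0.0023, adjusted p = 0.589). Against 3 months, 24 months differed by -0.24 (interval -1.06 to 0.59; limma, unadjusted p = 0.536) and 12 months by 0.28 (interval -0.57 to 1.12), intervals wide beside the 24 against 12 month one. With 1 mouse left out the first ranged from -0.47 (without 3-month replicate 6) to -0.02 (without 3-month replicate 5), and the second from 0.04 to 0.50 (without the same mice in turn). The protein-coding transcript ENSMUST00000171737 carried 90.3% of the Odc1 FPKM.

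Androgen-responsive genes and segment markers were set beside Odc1. In 3-month replicates 6 and 8, the pair low in Odc1, the summed FPKM of 4 markers of the proximal straight segment was 219 and 255, against 331 to 505 in the other 3 mice of that age. The 4 collecting duct principal cell markers went the other way, with sums of 182.5 and 114.5 in this pair, against 55.4 to 97.9. The proximal tubule markers summed to 2759 and 2445 in the pair, against 2263 to 2477, and did not set both mice apart. Slco1a1, an organic anion transporter induced by androgen, was at 67.0, 9.68, 52.9, 20.2 and 17.3 FPKM in 3-month replicates 5 to 9. Slco1a1 and Cyp4b1 were lowest in replicates 6 and 9, whereas Kap, Cyp7b1 and Gusb, the other androgen-responsive genes listed, were lowest in replicates 6 and 8. The sum over these 5 genes was 8459, 6306, 10160, 5433 and 7176 in the same mice, lowest in the pair low in Odc1. Most of that sum was Kap, at 7487, 5814, 9428, 4830 and 6587, so it mainly repeats the order of Kap. At 24 against 12 months 5 of 5 androgen-responsive genes were lower, 3 of them at an unadjusted p under 0.05 and 0 after adjustment in limma, where 16582 of all 32282 genes were lower and 3.36% were lower at that limit. Slco1a1 had 28.3 ± 7.38 FPKM at 12 months and 14.0 ± 4.33 at 24 months (log2 fold change -0.97, SE 0.25; unadjusted p = 0.00332, adjusted p = 0.627). The sum over the 5 androgen-responsive genes, most of it Kap, was 5433 to 10160 at 3 months, 7160 to 9836 at 12 months and 4813 to 7502 at 24 months. The straight segment markers summed to 315 to 401 at 12 months and 315 to 370 at 24 months. The part of any of these sets of genes in the Odc1 values was not tested.

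**Figure D4:**
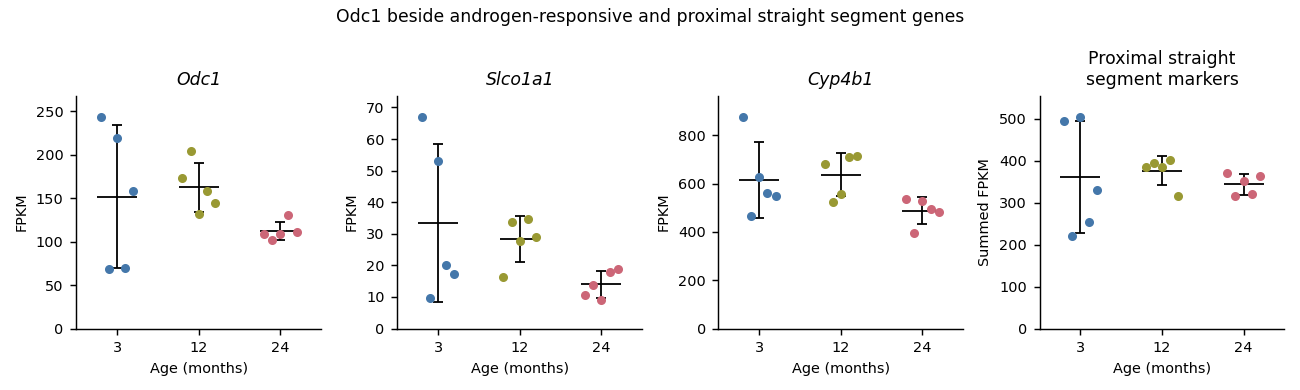
FPKM of Odc1, of the androgen-responsive genes Slco1a1 and Cyp4b1, and the summed FPKM of 4 markers of the proximal straight segment (vertical axes, from 0) against age in months, 1 point for each mouse with the mean and 1 SD (n = 5). In all 4 panels the 3-month-old mice spread most, and Odc1 lies lower at 24 months (102 to 130.4) than at 12 months (131 to 205) in every mouse.

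Azin1 (chr15:38485760-38519266, minus strand) encodes antizyme inhibitor 1, which frees ornithine decarboxylase from the antizyme that would send it to degradation. Its FPKM was 19.6, 12.2, 19.9, 19.3 and 18.9 in 3-month replicates 5 to 9, with replicate 6 apart from the rest. It was 11.2 to 20.2 at 12 months with a median of 17.6, and 15.9 to 19.4 at 24 months with a median of 17.7. The log2 fold change at 24 against 3 months was 0.00 (SE 0.13; interval -0.29 to 0.29), which leaves room for differences up to that size in either direction.

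Single RNAs of Azin1 were further apart than the gene sum. ENSMUST00000149293, a transcript annotated as keeping an intron, was at 2.58, 1.504, 2.61, 2.85 and 1.26 FPKM at 3 months and at 0.197, 1.77, 0.233, 0.207 and 0.508 at 24 months (log2 fold change -1.05, SE 0.27; limma, unadjusted p = 0.00308, adjusted p = 0.342), so that 4 of 5 older mice lay below all younger ones. A circular intronic RNA of Azin1 (chr15:38497551-38498668) was at 10.4, 4.84, 9.50, 9.60 and 10.1 CPM at 3 months and at 6.71, 4.44, 6.00, 7.77 and 3.89 at 24 months. Its log2 fold change was -0.62 (edgeR, unadjusted p = 0.016, adjusted p = 0.0858), on only 31 to 79.7 estimated counts per mouse. The exonic circle of Azin1 had 90.4 ± 16.8 CPM at 3 months and 79.1 ± 7.91 at 24 months (log2 fold change -0.20; edgeR, unadjusted p = 0.15). The same 3-month mouse, replicate 6, was the lowest of its age in the linear gene, the exonic circle (62.4 CPM) and the intronic circle.

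A circular intronic RNA of Gatm (chr2:122597489-122598136) was the scarcest of the 6, with 11 to 51.1 estimated counts per mouse. It had 3.76 ± 2.06 CPM at 3 months and 2.22 ± 1.13 at 24 months (log2 fold change -0.77; edgeR, unadjusted p = 0.0781, adjusted p = 0.227).

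Amd1 (chr10:40287458-40302186, minus strand) encodes S-adenosylmethionine decarboxylase, which supplies the aminopropyl groups of spermidine and spermine. Its FPKM was 8.41, 9.65, 13.1, 19.8 and 8.78 in 3-month replicates 5 to 9, 5.85 to 11.8 at 12 months (median 10.4) and 10.4 to 13.9 at 24 months (median 10.7). The highest value was in 3-month replicate 8, and the ages overlapped fully (log2 fold change 0.00 at 24 against 3 months; SE 0.21; interval -0.47 to 0.47). Amd1 shares sequence with Amd2 and with pseudogenes, so how reads were split between them is uncertain.

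Srm (chr4:148591503-148594993, plus strand) encodes spermidine synthase. Its FPKM was 8.39, 8.22, 7.19, 8.32 and 5.51 in 3-month replicates 5 to 9. It was 5.79, 4.94, 5.60, 5.78 and 6.37 in 12-month replicates 17 to 21, and 6.20, 4.99, 5.60, 5.37 and 6.10 in 24-month replicates 31 to 35. In 4 of 5 mice at 3 months Srm was above all 10 older mice, and replicate 9 lay among them.

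The log2 difference of Srm was -0.34 at 12 against 3 months (SE 0.11; limma, unadjusted p = 0.0137, adjusted p = 0.218) and -0.35 at 24 against 3 months (SE 0.11; unadjusted p = 0.0116, adjusted p = 0.18). At 24 against 12 months it was -0.01 (interval -0.19 to 0.17). Without 3-month replicate 9 the difference at 24 against 3 months was -0.44 (limma, adjusted p = 0.0634).

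Sat1 (chrX:155212917-155216449, minus strand) encodes spermidine/spermine acetyltransferase, which starts polyamine breakdown and export. Its FPKM was 38.4, 49.6, 31.5, 43.2 and 36.7 in 3-month replicates 5 to 9, 25.6 to 38.6 at 12 months (median 36.3) and 30.8 to 47.0 at 24 months (median 39.9). The ages overlapped (log2 fold change -0.04 at 24 against 3 months; SE 0.15; interval -0.37 to 0.29). Sat1 is known to be held down by a transcript that carries an extra exon and is degraded. That transcript, ENSMUST00000152463, carried 5.65% of the Sat1 FPKM and had 2.23 ± 1.498 FPKM at 3 months and 2.02 ± 1.42 at 24 months.

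Of 15 partners in polyamine synthesis, breakdown and control, 1 passed limma's adjusted limit at 24 against 3 months, beside 1.22% of all genes. At an unadjusted p under 0.05 there were 2 of 15, beside 14.9% of all genes. Sat2, a relative of Sat1, rose from 3.34 ± 0.27 to 5.49 ± 0.76 FPKM without overlap (log2 fold change 0.57, SE 0.10; adjusted p = 0.0302). On the fragment scale its adjusted p was 0.0579. At 12 months Sat2 had 5.39 ± 1.08 FPKM, close to the 24-month level, with an adjusted p of 0.0901 in limma against 3 months. Paox, a polyamine oxidase named after its values were seen, was at 1.78 ± 0.41 FPKM at 3 months and 2.84 ± 0.54 at 24 months without overlap (limma, unadjusted p = 0.00684, adjusted p = 0.142). Being higher without overlap, as Sat2 and Paox were, held for 3.82% of all genes. Spermine synthase, Sms, was at 7.56 ± 1.54 and 7.97 ± 2.08, and the antizyme gene Oaz1 at 53.2 ± 7.21 and 45.0 ± 15.5. Of 8 genes of methionine and methylthioadenosine metabolism 0 passed in any comparison, with 1 lower at an unadjusted p under 0.05 in each. Of all genes, 3.47% were lower at that limit at 24 against 3 months, 2.9% at 12 against 3 months and 3.36% at 24 against 12 months.

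Clock genes differed between the same mice. The labels do not give the hour at which kidneys were taken. Of 13 clock genes, 4 passed limma's adjusted limit at 24 against 3 months (1.22% of all genes did) and 10 had an unadjusted p under 0.05 (14.9% did). Like the other lists, this one was chosen with earlier results of these data known. Arntl was at 11.9 ± 3.30 FPKM at 3 months, 3.88 ± 1.349 at 12 months and 1.45 at 24 months (0.510 to 3.72), and Npas2 was at 5.07 ± 1.57, 1.84 ± 0.62 and 0.523 ± 0.325. Dbp was at 1.17 ± 0.89, 10.5 ± 3.24 and 12.3 ± 6.84, and Per3 at 2.37 ± 1.16, 5.62 ± 0.87 and 9.35 ± 2.85. At 12 against 3 months Dbp, Arntl and Clock passed (0.25% of all genes did). At 24 against 12 months 0 passed, and Npas2 (log2 fold change -0.89), Slco1a1 and the clock gene Cry1 (0.60) had the smallest p of all partner genes. Their part in the differences of the 10 genes was not tested.

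Of the markers of stroma, immune, intercalated, collecting duct principal, thick limb and distal convoluted tubule cells, 0 passed limma's adjusted limit in any comparison. At 12 against 3 months, 3 of 4 stroma and 3 of 5 immune markers were higher at an unadjusted p under 0.05 (11.4% of all genes were). At that limit 3 of 5 intercalated and 1 of 4 principal cell markers were lower (2.9% were). At 24 against 3 months 2 stroma and 3 immune markers were higher (11.4% were) and 1 intercalated marker lower (3.47% were). Of 4 thick limb markers, 2 were lower at 12 against 3 months (2.9% were). At 24 against 12 months 1 stroma, 1 proximal tubule and 1 distal convoluted tubule marker were lower (3.36% were). Higher in that comparison were 1 intercalated and 2 thick limb markers (3.07% were). The distal convoluted tubule marker, Trpm6, had no overlap (limma, unadjusted p = 0.000221, adjusted p = 0.581), as held for 0.573% of all genes in that direction. The 4 stroma markers summed to 17.6 to 36.8 FPKM at 3 months, 39.6 to 63.0 at 12 months and 30.4 to 49.0 at 24 months, and the 5 immune markers to 7.704 to 28.7, 16.6 to 51.7 and 12.7 to 27.8. The 5 intercalated cell markers summed to 32.7 to 41.6 FPKM at 3 months, 21.5 to 30.5 at 12 months and 22.9 to 29.1 at 24 months. For the 4 principal cell markers the sums were 55.4 to 182.5, 48.7 to 74.8 and 42.8 to 86.7, and 4 of 4 were lower at both older ages than at 3 months. Of the 10 proximal tubule markers, Slc5a2 and Slc5a12 were lower and Slc22a8 was higher at 24 than at 3 months at an unadjusted p under 0.05. Of all genes, 3.47% were lower and 11.4% higher at that limit. After adjustment in limma 0 of these 10 passed. The 3 fat markers summed to at most 4.72 and the 3 adrenal markers to at most 3.25 FPKM in any mouse. The part of these markers in the differences of the 10 genes was not tested.

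For each of the 10 genes, the genes of most alike profile were sought among 7453 genes with a mean of at least 5 FPKM, by the root mean square distance between profiles over the 15 mice scaled to mean 0 and SD 1, where the median distance to all genes was 1.36 to 1.47. The nearest of that many genes is a minimum and lies below the median by selection, so the median does not measure likeness. Whether unrelated profiles would lie as near was not tested. Nearest to Odc1 were Idi1 (0.356), an enzyme of isoprenoid synthesis, and Cpe (0.422), carboxypeptidase E, and nearest to Gatm were Mettl26 (0.447) and Npdc1 (0.491). Ass1 was nearest to Gm44588 (0.513) and Cyp2a4 (0.529), a steroid hydroxylase. Ckb was nearest to Pabpn1 (0.444), a poly(A)-binding protein, and Aspscr1 (0.538). Asl was nearest to Gpam (0.452), an enzyme of triglyceride synthesis, and Mfn2 (0.509), which fuses mitochondria, and Arg2 to Sgms1 (0.511) and Enpp2 (0.599). Srm was nearest to Slc4a9 (0.509), a bicarbonate transporter of intercalated cells, and Agfg2 (0.556). Sat1, Amd1 and Azin1, which differed least at 24 against 3 months, had the most distant nearest genes, namely Vps54 (0.644) and Sult1d1 (0.645), Zzef1 (0.656) and Rchy1 (0.692), and Abhd17c (0.589) and Zfp422 (0.631).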

How the data were processed

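Kidney RNA of 15 mice was sequenced, 1 library for each mouse, and mice were grouped by the age in their labels. The authors trimmed reads with Cutadapt, mapped them to GRCm38 with Ensembl 88 annotation, assembled transcripts with StringTie and deposited an FPKM and a mean coverage (signal) per transcript and mouse. The submitters' processing notes also list TopHat and TopHat2. The deposited estimated counts of circular RNAs were not whole numbers and were rounded for testing. How they were made is not given in the sources used here. Coverage divided by FPKM gave the aligned bases per library. Depth per gene is unknown, so the precision is the spread between mice.

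The value of a gene was the summed FPKM of transcripts with class codes =, c, j or o. Genes with a value above 0 in 1 or more mice of a comparison were tested with limma 3.58.1 (trend) on log2(FPKM + 1), which understates changes of low genes, and adjusted over all genes by Benjamini-Hochberg. Transcripts were tested likewise, circular RNAs above 0 in at least 5 mice with edgeR 4.0.16 (DESeq2 1.42.0 as the alternative), in R 4.3.3. The scripts were tested on simulated data. Python 3.11.15 was used for the rest.

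The members, partner lists and marker lists were chosen with earlier results of these data known. Named were all 10 genes, partners that passed the adjusted limit in a comparison or else the 3 of smallest p, transcripts with at least 5% of a gene's FPKM, all tested circular RNAs of the genes, and for each gene the 2 of nearest profile among genes with a mean of at least 5 FPKM. Other genes named are said to have been chosen after their values were seen, or illustrate a list. Alternatives were a pseudocount of 0.1, a mean FPKM of at least 1, other scalings, annotated transcripts only, all rows of a gene, 1 fit of 15 mice, a robust prior and each mouse left out. A fragment scale (FPKM times transcript length) was added after the data were seen.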

Additional observations from a re-analysis of the deposited data

Results flagged for a closer look

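In 2 of the 30 sets of 5 mice (10 genes at 3 ages), 1 mouse stood apart from the other 4 by Dixon's test at 95%, which chance gives in about 1 set in 20. Azin1 in 3-month replicate 6 was at 12.2 FPKM, while the other 4 mice lay between 18.9 and 19.9. The exonic circle and the intronic circle of Azin1 were also lowest in this mouse among those of its age. Ckb in 12-month replicate 21 was at 32.7 FPKM (32.75 before rounding), while the other 4 lay between 18.8 and 21.8, and the Ckb circle was highest in that mouse too. Circle counts may share reads with the linear RNA, so the circles are not independent of the linear values. Without this mouse the log2 difference of Ckb at 24 against 12 months was -0.57 (limma, unadjusted p = 0.00399, adjusted p = 0.712).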

How the results depend on the processing

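No paired analysis was possible because the 3 ages share no replicate number. The number of genes past limma's adjusted limit at 24 against 3 months went from 0 to 1 (Gatm) with all 15 mice in one fit. With each mouse left out it ranged from 0 to 1 in that comparison and in the F test over 3 ages, and was 0 throughout in the comparisons with 12-month-old mice. The F test gained a gene without 3-month replicate 8 and without 3-month replicate 9. The number of circular RNAs past the limit ranged from 0 to 1, with 1 without 3-month replicate 6 and without 24-month replicate 31.

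Some differences changed sign. At 24 against 3 months Amd1 was at -0.057 under median-of-ratios scaling, -0.061 with all rows of the gene and -0.088 on the fragment scale, Azin1 at 0.018 in TPM and 0.13 on annotated transcripts (0.039 at 12 against 3 months), and Sat1 at 0.028 on the fragment scale. At 24 against 12 months Srm was at 0.015 under median-of-ratios scaling and 0.053 in TPM, and Ass1 at -0.10 on the fragment scale, and at 12 against 3 months Asl was at 0.041 on the fragment scale. Arg2, which was at -0.41 at 24 against 3 months and at -0.29 at 12 against 3 months over all its transcripts, reversed on annotated transcripts alone, where it was at 0.13 at 24 against 3 months, 0.11 at 12 against 3 months and 0.022 at 24 against 12 months. With 1 mouse left out, the log2 fold changes at 24 against 3 months ranged from -0.10 to 0.19 for Amd1, from -0.13 to 0.037 for Azin1 and from -0.12 to 0.043 for Sat1. Azin1 ranged from -0.23 to 0.0195 at 12 against 3 months and from -0.022 to 0.18 at 24 against 12 months, where Srm ranged from -0.052 to 0.027 and Ass1 from -0.023 to 0.15. The cause was not tested.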
